A study of Mus musculus with 12 samples.

Results

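In all, 10 nuclear receptor genes of the 17090 genes with a count were followed through an adipocyte protocol in MTΔECad cells: the retinoic acid receptors Rara, Rarb and Rarg, the thyroid hormone receptors Thra and Thrb, the vitamin D receptor Vdr, and the orphan receptors Esrra, Nr4a1, Nr2f1 and Nr2f2. They were chosen as a named list matched by Entrez gene identifier and not by their levels. The cells are 1 line of mesenchymal mouse breast cancer cells. Its RNA was sequenced at 0 h, 6 h, day 3, day 5, day 7 and day 10, with 2 libraries at each time, 12 in all, which the labels trace to 2 independent experiments. By the protocol, cells were seeded at 20000 cells/cm2 and, after a night, given human BMP2 at 200 ng/ml for 3 days, then BMP2 together with rosiglitazone at 2 µM for 4 days, then rosiglitazone alone for 3 days. All 6 times therefore share the line, and later times differ from 0 h in culture time, density and treatment at once. No untreated cells matched in time are among the samples. Rosiglitazone is itself a ligand of a nuclear receptor, PPARγ, which drives fat cell formation.

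Nuclear receptors are transcription factors that bind DNA through paired zinc fingers and, in most cases, a small lipophilic ligand through a separate domain. Receptors for retinoic acid, thyroid hormone and vitamin D pair with a retinoid X receptor on repeats of the half-site AGGTCA, hold corepressors without ligand and exchange them for coactivators when ligand binds. ESRRA and NR4A1 act without a known physiological ligand and are set largely by their own amount and their coactivators, and NR2F1 and NR2F2 (COUP-TFI and COUP-TFII) often repress. In fat cells these receptors are known for restraining or permitting early differentiation and for setting mitochondrial and lipid gene programmes. Transcript level says nothing of ligand, protein or activity.

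Library totals lay between 12820802 and 17570366 counts, and levels are given as CPM, counts scaled to the size of the library after a TMM correction for composition. Log2 CPM of replicate libraries correlated at 0.9920 (day 3) to 0.9946 (0 h and 6 h). The change of cell state was checked with marker lists, each with the summed CPM of its genes. All 12 white adipocyte markers had counts and summed to 35457 to 36971 CPM at day 10, against 31.4 to 37.2 CPM at 0 h. The 3 proliferation markers summed to 23.5 to 28.5 CPM at day 10 and 2540 to 2577 CPM at 0 h, and the 9 mesenchymal markers to 3409 to 3856 CPM at day 10 and 11514 to 11958 CPM at 0 h. The 8 epithelial markers summed to 906 to 964 CPM at day 10 and 842 to 853 CPM at 0 h. These sums rest on part of the list: Epcam and Cldn7 were at 0 counts in both libraries of 0 h, and Krt5 in both of day 10. E-cadherin (Cdh1), whose loss the line is named for, had 1 to 20 counts in every library. Of 7 leukocyte, 6 endothelial and 5 muscle markers, 3, 5 and 2 had counts, and each list stayed below 8.5 CPM in all 12 libraries, with Ptprc and Kdr at 0 counts in both libraries of several times. The 7 osteochondral markers, 5 of them with counts, summed to 50.3 to 52.9 CPM at day 10 and 13.0 to 13.7 CPM at 0 h. Of these, Col2a1, Sp7 and Alpl were at 0 counts in both libraries of 0 h, and Sp7 and Bglap in both of day 10. Between these times the sums did not run evenly. At day 3 the epithelial markers summed to 103 to 150 CPM, the mesenchymal ones to 12082 to 16392, the proliferation ones to 35.4 to 56.4 and the osteochondral ones to 52.0 to 52.4 CPM, and at day 5 the epithelial ones summed to 599.7 to 718 CPM. The day 3 sums fall at the same time as the peaks of Rarg, Vdr and Nr4a1. The part of these shifts in the receptor changes below was not tested. In RNA pooled from a whole culture, a smaller share of cells that express a gene and less RNA in each cell cannot be told apart.

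All 10 receptors passed the filter on low counts, and all 10 differed between at least some times in edgeR's joint quasi-likelihood test with Benjamini-Hochberg adjustment, against 94.7% of the 12740 genes tested. A gene was called where its adjusted p lay below 0.05. Between day 10 and 0 h, 9 receptors were called, against 82.7% of all genes. Of these, 4 were higher (Rara, Thra, Thrb and Esrra; 42.8% of all genes) and 5 lower (Rarb, Rarg, Vdr, Nr2f1 and Nr2f2; 39.9% of all genes), and Nr4a1 was not called. Their median log2 fold change was -0.23, and that of all genes 0.06. At day 3 against 0 h, at the end of BMP2 alone, 7 were called against 68.1% of all genes. Here 6 were higher (33.1% of all genes) and only Nr2f2 was lower (35.0% of all genes), and the median log2 fold change was 0.81 for the receptors and 0.00 for all genes. At day 5 against day 3, over the switch to BMP2 with rosiglitazone, all 10 were called against 65.0% of all genes. They split into 5 higher (Rara, Thra, Thrb, Esrra and Nr2f2; 34.0% of all genes) and 5 lower (Rarb, Rarg, Vdr, Nr4a1 and Nr2f1; 31.0% of all genes).

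Smaller numbers were called at the other steps. At 6 h against 0 h only Vdr was called, and it was higher, against 0.746% of all genes called, 0.534% higher and 0.212% lower. At day 7 against day 5, 6 were called against 37.8% of all genes: Thrb was higher (19.0% of all genes) and 5 were lower (Rara, Rarg, Vdr, Nr4a1 and Nr2f2; 18.8% of all genes). In the last step, day 10 against day 7, 2 receptors, Vdr and Esrra, were called against 28.4% of all genes, both lower (13.2% of all genes were lower and 15.1% higher). Whether these counts differ from the shares of all genes was not tested, and the receptors are described below by the course of each over time.

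**Figure D1:**
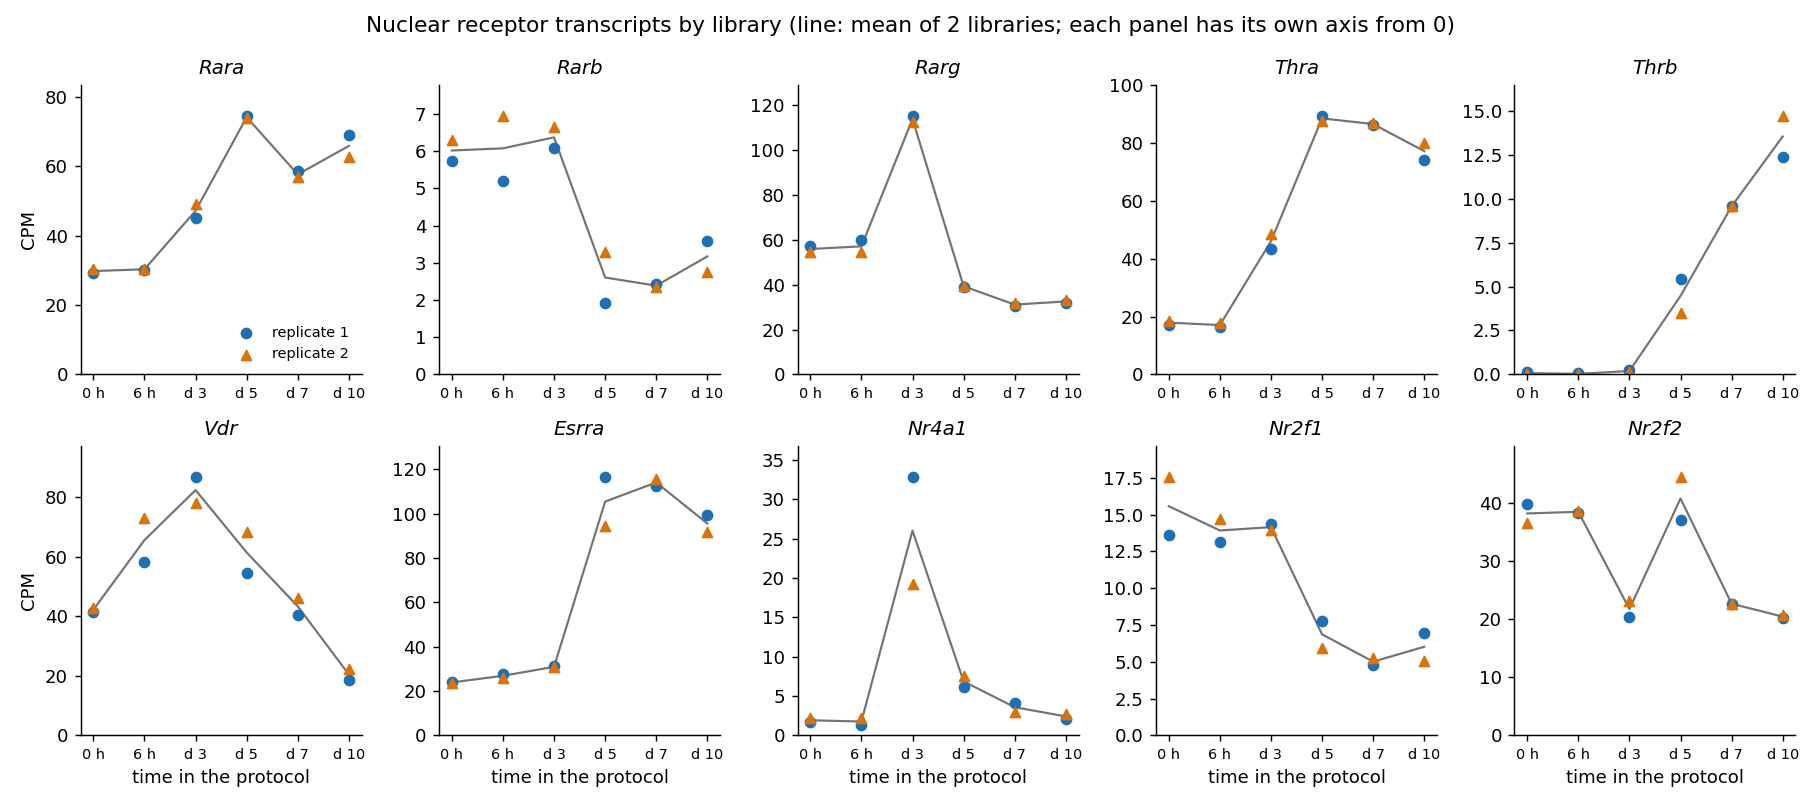
Level of each receptor in every library, in CPM (vertical axes start at 0 and differ between panels) against the time in the protocol (horizontal axis, times evenly spaced and not to scale). Circles are replicate 1, triangles replicate 2 and lines join their means. Thra and Esrra reach their high levels by day 5, Rarg and Nr4a1 peak at day 3, Thrb is near 0 until day 3, and Vdr has its highest mean at day 3 and its lowest at day 10.

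Among the retinoic acid receptors, Rara rose and Rarg fell over the course, with a peak of Rarg at day 3. Rara (Entrez 19401, chromosome 11, 98927800 to 98974942, plus strand, GRCm38.p6), the form found in most tissues, had 29.3 and 30.2 CPM at 0 h, 30.2 and 30.4 at 6 h, 45.2 and 49.1 at day 3, 74.5 and 73.7 at day 5, 58.5 and 56.7 at day 7, and 69.0 and 62.6 at day 10. Both libraries of day 5 lay above all others, and the libraries of 0 h and 6 h below all others. Rara was 2.21-fold higher at day 10 than at 0 h (log2 1.14, SE 0.0847, edgeR adjusted p = 1.3e-09), with steps of 0.66 (SE 0.0848) at day 3 against 0 h and 0.65 (SE 0.0802) at day 5 against day 3 on the log2 scale. Day 7 lay below day 5 by a small called step (log2 -0.36, SE 0.0794, edgeR adjusted p = 0.00177).

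Rarg (Entrez 19411, chromosome 15, 102234938 to 102257522, minus strand), a form best known from skin and cartilage, had 57.4 and 54.3 CPM at 0 h, 59.8 and 54.4 at 6 h, 115 and 112 at day 3, 39.1 and 39.5 at day 5, 30.4 and 31.9 at day 7, and 31.8 and 33.2 at day 10. The day 3 libraries stood above all others, and the libraries of days 5, 7 and 10 below all earlier ones. Rarg was 2.04-fold higher at day 3 than at 0 h (log2 1.03, SE 0.0776, edgeR adjusted p = 4.5e-09). It was then 2.90-fold lower at day 5 than at day 3 (log2 -1.53, SE 0.0792, edgeR adjusted p = 3.25e-11), and at day 10 it was 1.72-fold lower than at 0 h (log2 -0.78, SE 0.0837, edgeR adjusted p = 1.71e-07).

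Rarb (Entrez 218772, chromosome 14, 16430839 to 17082331, minus strand), itself a classical target of retinoic acid receptors, was the least abundant of the group. Its counts were 78 and 102 at 0 h, 80 and 128 at 6 h, 96 and 101 at day 3, 31 and 55 at day 5, 35 and 38 at day 7, and 40 and 36 at day 10. In CPM these were 5.73 and 6.31, 5.21 and 6.95, 6.10 and 6.64, 1.93 and 3.28, 2.42 and 2.35, and 3.58 and 2.76. Every library of days 5, 7 and 10 lay below every library of the first 3 times. Rarb was 2.43-fold lower at day 5 than at day 3 (log2 -1.28, SE 0.243, edgeR adjusted p = 0.000203) and 1.91-fold lower at day 10 than at 0 h (log2 -0.94, SE 0.252, edgeR adjusted p = 0.00262). Exons of Rarb share 1793 bases with Top2b on the opposite strand, and whether the counting used strand is not given in the sources used here. Top2b, a DNA topoisomerase, had 244 and 258 CPM at day 10 and 327 and 347 CPM at 0 h, so reads of the shared bases could be split between them, and the values of Rarb are uncertain. Top2b itself was lower at day 10 than at 0 h by a log2 change of -0.42 (SE 0.0777) and at day 5 than at day 3 by -0.35 (SE 0.0769).

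The promoter of Rarb is shown because it carries the retinoic acid response element for which the gene is known, beside the fall of the gene. The window runs from 250 bases before to 50 bases after a start of the gene in RefSeq, 5′ to 3′ along the gene, on the minus strand at chr14:16575427-16575726 (GRCm38.p6). Capitals mark the letters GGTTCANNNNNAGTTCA, in which N is any base, at bases -53 to -37 from the start.
Rarb: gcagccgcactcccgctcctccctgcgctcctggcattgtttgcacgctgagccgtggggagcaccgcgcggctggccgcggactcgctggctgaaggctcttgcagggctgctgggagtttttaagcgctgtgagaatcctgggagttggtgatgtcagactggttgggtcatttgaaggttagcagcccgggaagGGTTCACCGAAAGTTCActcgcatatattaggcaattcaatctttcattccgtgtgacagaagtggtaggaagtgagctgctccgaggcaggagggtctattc
Of 32851 windows of this length, 2 held that sequence on either strand, or 0.00609%. Of the 10 receptors, 9 had at least 1 window, 15 windows in all. The half-site AGGTCA was in 16.3% of all windows and in 3 of the 15, belonging to Rara, Rarg and Thrb. No receptor window held 2 direct copies of AGGTCA with 0 to 5 bases between them, an arrangement found in at most 0.0396% of all windows for any 1 spacing. A match is a description of the letters and not a measure of binding.

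**Figure D2:**
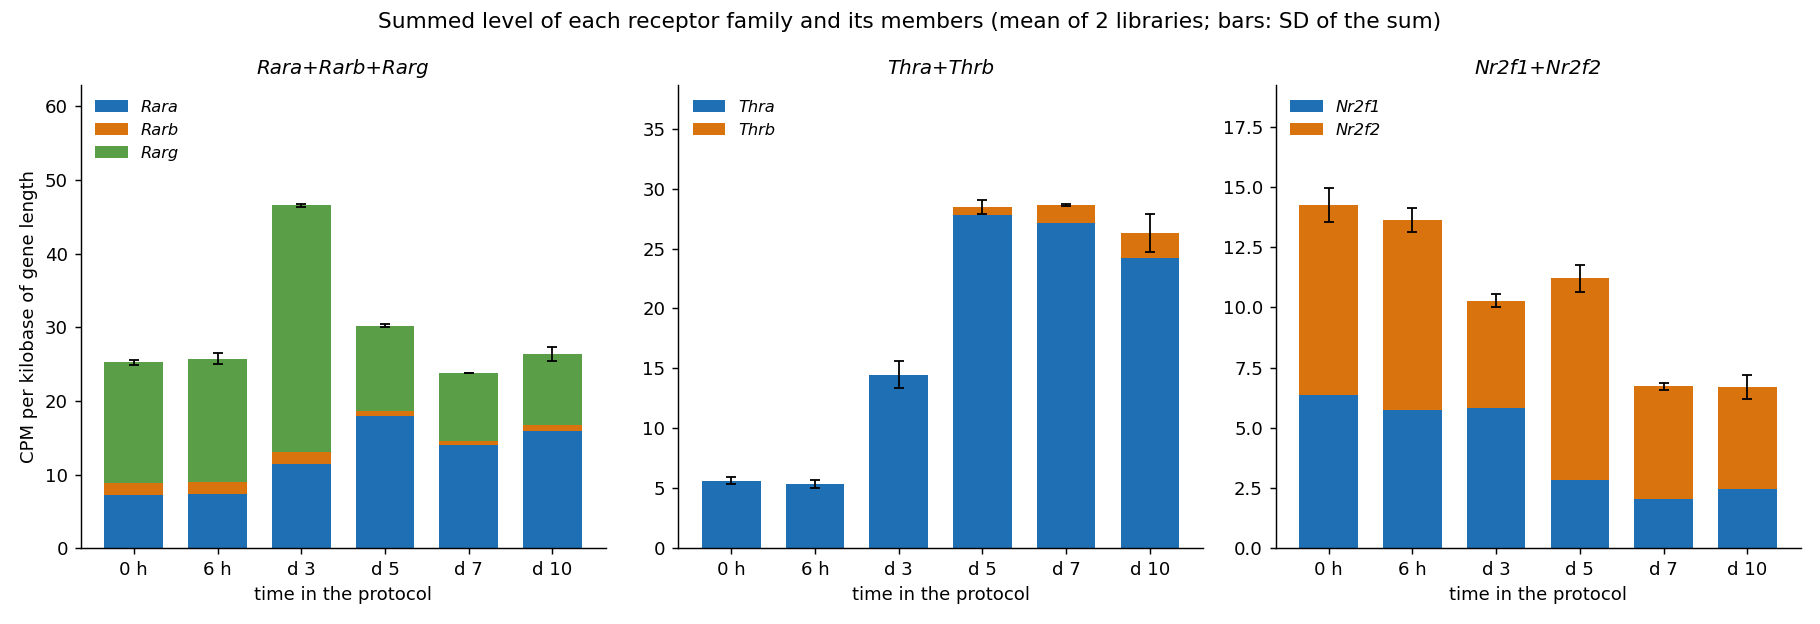
Summed level of the retinoic acid receptors, the thyroid hormone receptors and NR2F1 with NR2F2, in CPM per kilobase of gene length (vertical axes start at 0 and differ), by time (evenly spaced, not to scale). Stacked colours are the members, bar heights the mean of 2 libraries and error bars the SD of the sum. Rarg makes up 65.1% of its family at 0 h and 36.4% at day 10, while the Thra and Thrb sum is 5.63 at 0 h and 26.3 at day 10.

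Per kilobase of the deposited gene length, the makeup of the retinoic acid receptors turned over between day 3 and day 5. Rara made up 60.5% ± 1.96 of the summed level of the family at day 10 and 28.6% ± 1.05 at 0 h (SD, n = 2 each). Rarg made up 36.4% ± 2.43 at day 10 and 65.1% ± 1.58 at 0 h. The order of the pair was the other way round between these times in both libraries of each. At day 3 the share of Rarg was 71.9% ± 1.56, and at day 5 it was 38.3% ± 0.00483. Rarb held 3.18% ± 0.474 at day 10 and 6.32% ± 0.522 at 0 h. The sum of the family was 26.3 ± 0.941 CPM per kilobase at day 10 and 25.2 ± 0.374 at 0 h, with 46.6 ± 0.205 at day 3. These shares compare genes through 1 length each and were not tested.

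Genes that carry, make and break down retinoic acid changed in both directions. Of 26 listed, 21 had counts and 16 passed the filter. All 16 were called at day 10 against 0 h, against 82.7% of all genes, 10 higher (42.8% of all genes) and 6 lower (39.9%), with a median log2 fold change of 3.39 against 0.06 for all genes. Of the 16, 5 had 3 counts or fewer at one of the 2 times, and the median with these at their bound was again 3.39. These 5 passed the filter only through other times, so part of their calls and of the median was built in. Rbp7, a retinol-binding protein of fat tissue, had 908 and 1291 counts at day 10 and 0 and 1 at 0 h, a ratio of 2705 (95% exact counting interval 485 to 106894). Dhrs3, a retinaldehyde reductase that turns retinaldehyde back to retinol and is induced by retinoic acid, had 496 and 440 CPM at day 10, against 0.367 and 0.866 CPM at 0 h. Its log2 fold change was 9.50 (SE 0.555, edgeR adjusted p = 2.31e-06). Fabp5, a fatty acid carrier that can also bring retinoic acid to PPARδ, had 478 and 481 CPM at day 10 and 29.1 and 27.8 CPM at 0 h (log2 4.07, SE 0.0977). Aldh1a3, which makes retinoic acid from retinaldehyde, had 0 counts in both libraries of day 10 and 77 and 118 at 0 h, at least 52.8-fold lower at a floor of 3 counts over the group.

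Crabp2, Cyp26b1 and Rdh10, of the same list, were chosen after their values were seen. Crabp2, which delivers retinoic acid to its receptors, had 11.8 and 13.9 CPM at day 3 and 6.61 and 7.23 CPM at 0 h (log2 0.89, SE 0.168), and then 0.179 and 0.230 CPM at day 10. Its libraries were highest at day 3, as were those of Rarg, and it was called lower at day 10 than at 0 h (edgeR adjusted p = 7.61e-10). Cyp26b1, which degrades retinoic acid, had 7.88 and 7.43 CPM at day 10 and 0 and 0.247 CPM at 0 h (0 and 4 counts; log2 5.75, SE 0.560). Rdh10, which oxidises retinol, had 44.8 and 45.4 CPM at day 10 and 22.8 and 23.4 CPM at 0 h (log2 0.97, SE 0.112), with 11.2 and 15.1 CPM at day 3.

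Of 18 known target genes of retinoic acid receptors, 15 had counts and 12 were tested. At day 10 against 0 h, 9 of the 12 were called, a share below the 82.7% of all genes, 6 of them higher and 3 lower. Their median log2 fold change was 1.30, also with 2 low genes at their bound, against 0.06 for all genes. The 2 low genes passed the filter only through other times. Rarres2, which encodes the adipokine chemerin, had 3695 and 4262 counts at day 10 and 0 in both libraries of 0 h, at least 3263-fold higher. Tgm2, a transglutaminase, had 697 and 613 CPM at day 10 and 110 and 160 CPM at 0 h (log2 2.28, SE 0.241, edgeR adjusted p = 3.99e-05). Dhrs3, described above, is also on this list.

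Both thyroid hormone receptors rose. Thra (Entrez 21833, chromosome 11, 98740776 to 98769006, plus strand), the form that prevails in muscle, brain and fat precursors, had 17.2 and 18.6 CPM at 0 h, 16.3 and 17.8 at 6 h, 43.4 and 48.6 at day 3, 89.4 and 87.7 at day 5, 86.3 and 86.8 at day 7, and 74.3 and 80.2 at day 10. The libraries of days 5, 7 and 10 all lay above those of day 3, which all lay above those of 0 h and 6 h. Thra was 4.31-fold higher at day 10 than at 0 h (log2 2.11, SE 0.0922, edgeR adjusted p = 1.04e-12). Its step was 1.36 (SE 0.0929) at day 3 against 0 h and 0.94 (SE 0.0831) at day 5 against day 3 on the log2 scale, and no later step was called. Exons of Thra share 263 bases with Nr1d1 (REV-ERBα), a clock repressor on the opposite strand. Nr1d1 had 14.6 and 12.9 CPM at day 10 and 6.98 and 4.51 CPM at 0 h (log2 1.27, SE 0.191), and at day 5 against day 3 its log2 fold change was 0.22 (SE 0.168, edgeR adjusted p = 0.272).

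Thrb (Entrez 21834, chromosome 14, 17659225 to 18040097, plus strand), the form that prevails in liver and pituitary, had few counts up to day 3. Its counts were 2 and 0 at 0 h, 1 and 0 at 6 h, 4 and 2 at day 3, 87 and 59 at day 5, 138 and 155 at day 7, and 138 and 192 at day 10. Every library from day 5 on lay above every earlier one. In CPM the levels were 0.254 and 0.132 at day 3, 5.41 and 3.52 at day 5, 9.55 and 9.57 at day 7, and 12.4 and 14.7 at day 10. The ratio of day 10 to 0 h was 203 (95% exact counting interval 55.7 to 1683, counting error only), and that of day 3 to 0 h was 2.89 (0.516 to 29.3), which the depth could not tell from no change. The ratio of day 10 to 0 h rests on the 2 counts of replicate 1 of 0 h: without that library it was at least 73.5 at a floor of 3 counts, and without replicate 2 of 0 h it was 92.8 (95% exact counting interval 25.5 to 769). Thrb was called higher at day 5 than at day 3 (log2 4.46, SE 0.459, edgeR adjusted p = 2.38e-07) and at day 7 than at day 5 (log2 1.10, SE 0.231, edgeR adjusted p = 0.00127). Its log2 fold change at day 10 against day 7 was 0.50 (SE 0.210, edgeR adjusted p = 0.0849). The adjusted p was 0.0331 without a filter and 0.0103 with only the 4 libraries compared. The change against early times was partly built in, since the gene passed the filter only through its later times. Thrb made up 7.83% ± 0.494 of the summed level per kilobase of both thyroid hormone receptors at day 10 and 0.207% ± 0.293 at 0 h (SD, n = 2 each).

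One promoter window of Thrb is shown because of the rise of the gene and because the window holds a half-site. It lies on the plus strand at chr14:17660710-17661009 (GRCm38.p6, RefSeq), 5′ to 3′ along the gene. Capitals mark AGGTCA at bases -184 to -179 from the start.
Thrb: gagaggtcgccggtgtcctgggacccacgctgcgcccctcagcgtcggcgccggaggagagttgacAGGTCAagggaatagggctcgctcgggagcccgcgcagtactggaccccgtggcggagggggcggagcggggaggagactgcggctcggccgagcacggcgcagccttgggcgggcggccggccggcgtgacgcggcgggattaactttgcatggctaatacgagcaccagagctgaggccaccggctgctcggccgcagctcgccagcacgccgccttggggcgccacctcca
The same 6 letters occurred in 16.3% of all windows, so their presence in 1 of the 2 Thrb windows is common. The window had 72.7% G and C, against a median of 52.7% over all windows.

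Genes that act on or answer to thyroid hormone were read beside the receptors. Of 10 transport and deiodination genes, 6 had counts and 4 were tested, of which 3 were called at day 10 against 0 h (82.7% of all genes), 1 higher and 2 lower (median log2 fold change -0.09, and 0.06 for all genes). Slc16a10, an aromatic amino acid and thyroid hormone transporter, had 30 and 29 counts at day 10 and 7 and 8 at 0 h (log2 2.26, SE 0.493, edgeR adjusted p = 0.000457). The amino acid transporter subunits Slc7a5 and Slc3a2, which can also carry thyroid hormone, had their highest levels at day 3. Slc7a5 had 494 and 517 CPM at day 3 and 164 and 157 CPM at 0 h (log2 1.65, SE 0.0965), and 49.1 and 37.5 CPM at day 10. Slc3a2 had 585 and 567 CPM at day 3 and 180 and 175 CPM at 0 h (log2 1.70, SE 0.080), and 151 and 127 CPM at day 10. Dio2, the enzyme that makes active hormone, had 37 and 28 counts at day 3 and 4 and 8 at 0 h (log2 2.36, SE 0.444, edgeR adjusted p = 0.00017), with 4 and 7 counts at day 10; it was chosen after its values were seen.

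Of 17 known target genes of thyroid hormone receptors, 16 had counts and 12 were tested. All 12 were called at day 10 against 0 h, against 82.7% of all genes, 9 higher (42.8% of all genes) and 3 lower (39.9%). Their median log2 fold change was 2.70, also with 3 low genes at their bound, and that of all genes 0.06. These 3 passed the filter only through their later times, so their change against 0 h was partly built in. At day 3 against 0 h, 7 were called against 68.1% of all genes, 2 higher and 5 lower. At day 5 against day 3, 10 were called against 65.0% of all genes, 9 higher (34.0% of all genes) and 1 lower (31.0%). Thrsp (Spot 14), a lipogenic gene, had 1490 and 1778 counts at day 10 and 0 in both libraries of 0 h, at least 1340-fold higher. Pck1, which feeds glycerol synthesis in fat cells, had 3652 and 3796 counts at day 10 and 0 in both libraries of 0 h, at least 3054-fold higher. Fasn, the fatty acid synthase, had 6676 and 5565 CPM at day 10 and 503 and 528 CPM at 0 h (log2 3.57, SE 0.0951), and Atp2a2, a calcium pump, had 346 and 342 CPM at day 10 and 461 and 462 CPM at 0 h (log2 -0.43, SE 0.0821). Several of these genes are lipogenic and are also known targets of other factors of fat cells. Hr, a corepressor that thyroid hormone induces in brain, had 44.3 and 38.6 CPM at day 10 and 3.82 and 2.10 CPM at 0 h (log2 3.83, SE 0.181). Klf9 had 216 and 190 CPM at day 3, against 50.0 and 48.3 CPM at 0 h (log2 2.05, SE 0.0791), and 150 and 146 CPM at day 10. Hr and Klf9 were chosen after their values were seen.

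Vdr (Entrez 22337, chromosome 15, 97854427 to 97908296, minus strand), the receptor of active vitamin D, was high early and lowest at the end. It had 41.6 and 42.9 CPM at 0 h, 58.2 and 73.2 at 6 h, 86.9 and 78.1 at day 3, 54.6 and 68.4 at day 5, 40.5 and 46.3 at day 7, and 18.6 and 22.4 at day 10. The day 3 libraries lay above all others and the day 10 libraries below all others. Vdr was 1.95-fold higher at day 3 than at 0 h (log2 0.96, SE 0.130, edgeR adjusted p = 1.32e-05). It was 2.06-fold lower at day 10 than at 0 h (log2 -1.04, SE 0.146, edgeR adjusted p = 1.11e-05) and 2.11-fold lower at day 10 than at day 7 (log2 -1.08, SE 0.145, edgeR adjusted p = 8.29e-05).

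The other steps of Vdr depended on single libraries. At 6 h Vdr was 1.56-fold higher than at 0 h (log2 0.64, SE 0.131, edgeR adjusted p = 0.0401), and both 6 h libraries lay above both 0 h libraries. The adjusted p was 0.365 without replicate 1 of 0 h, 0.310 without replicate 2 of 0 h, 0.388 without replicate 2 of 6 h and 0.0503 without replicate 2 of day 10. At day 5 against day 3 the log2 fold change was -0.42 (SE 0.127, edgeR adjusted p = 0.00932), with an adjusted p of 0.0704 without replicate 1 of day 3 and 0.0876 without replicate 1 of day 5. At day 7 against day 5 it was -0.50 (SE 0.131, edgeR adjusted p = 0.00776), with an adjusted p of 0.102 without replicate 2 of day 5 and 0.0816 without replicate 1 of day 7.

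Of 18 genes of vitamin D activation, breakdown and response, 13 had counts and 9 were tested. At day 10 against 0 h, 7 of the 9 were called, a share not above the 82.7% of all genes, 2 higher and 5 lower (median log2 fold change -0.63, and -0.79 with 3 low genes at their bound, against 0.06 for all genes). The 3 low genes passed the filter only through other times. At day 3 against 0 h all 9 were called, against 68.1% of all genes, 4 higher and 5 lower. Cyp24a1, which breaks down vitamin D and is the usual readout of the receptor, had at most 2 counts in any library; it was chosen after its values were seen. Camp, a target of the receptor in human cells, had 41 and 52 counts at day 10 and 0 in both libraries of 0 h, at least 38.1-fold higher. Cyp27a1, a sterol hydroxylase that can act on vitamin D, had 32 and 37 counts at day 10 and 0 in both libraries of 0 h, at least 28.3-fold higher. Spp1 (osteopontin) peaked with Vdr, at 9140 and 8711 CPM at day 3, against 1726 and 2079 CPM at 0 h (log2 2.23, SE 0.152, edgeR adjusted p = 4.29e-08). Its log2 fold change at day 10 against 0 h was -0.26 (SE 0.146, edgeR adjusted p = 0.112). Pdia3, a protein disulfide isomerase, had 247 and 258 CPM at day 10 and 489 and 482 CPM at 0 h (log2 -0.95, SE 0.0728).

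Esrra (ERRα; Entrez 26379, chromosome 19, 6910977 to 6922048, minus strand), a driver of mitochondrial genes, rose mostly between day 3 and day 5. It had 24.0 and 23.8 CPM at 0 h, 27.8 and 26.0 at 6 h, 31.2 and 30.7 at day 3, 117 and 94.4 at day 5, 113 and 116 at day 7, and 99.5 and 91.7 at day 10. Every library from day 5 on lay above every earlier one, and the day 5 libraries overlapped those of days 7 and 10. Esrra was 4.00-fold higher at day 10 than at 0 h (log2 2.00, SE 0.0999, edgeR adjusted p = 6.34e-12) and 3.41-fold higher at day 5 than at day 3 (log2 1.77, SE 0.0961, edgeR adjusted p = 6.47e-11). The step at day 3 against 0 h was 0.37 (SE 0.104, edgeR adjusted p = 0.00449). At day 7 against day 5 the log2 fold change was 0.11 (SE 0.0887, edgeR adjusted p = 0.337), and it was called without replicate 1 of day 5 (0.29, adjusted p = 0.0210). Its last step, at day 10 against day 7, was -0.26 (SE 0.0900, edgeR adjusted p = 0.0425). That call was lost with median-of-ratios scaling (adjusted p = 0.0526), with a filter at a mean of 1 CPM (0.0515) and with DESeq2 (0.106). It was also lost without either replicate of 0 h (0.0563 and 0.0567), of 6 h (0.0504 and 0.0522), of day 7 (0.0983 and 0.178) or of day 10 (0.0663 and 0.261). Exons of Esrra share 73 bases with Trmt112 on the opposite strand, which had 9.14 and 8.65 CPM at day 10 and 6.02 and 7.23 CPM at 0 h.

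Coactivators and known targets of Esrra moved in the same step, and also in others. Of 29 listed, 27 had counts and 25 were tested. Of the 25, 21 were higher (42.8% of all genes) and 2 lower (39.9%) at day 10 than at 0 h. At day 5 against day 3, 23 were higher (34.0% of all genes) and 1 lower (31.0%). These comparisons had medians of 2.05 and 1.96 (log2 fold change) against 0.06 and 0.01 for all genes. At day 3 against 0 h, 3 were higher (33.1% of all genes) and 13 lower (35.0%), with a median of -0.38. At day 7 against day 5, where Esrra was not called, 18 were higher (19.0% of all genes) and 0 lower (18.8%), with a median of 0.38. Ppargc1a (PGC-1α), the coactivator through which ESRRA acts on mitochondrial genes, had 65.4 and 67.7 CPM at day 5 and 7.05 and 5.66 CPM at day 3 (log2 3.39, SE 0.140, edgeR adjusted p = 1.98e-12). Its level at day 10 was 32.7 and 32.9 CPM, against 0.441 and 0.742 CPM at 0 h (log2 5.74, SE 0.221). Both day 3 libraries of Ppargc1a already lay above those of 0 h. Ppargc1b (PGC-1β) had 45.1 and 44.2 CPM at day 5 and 2.48 and 2.76 CPM at day 3 (log2 4.09, SE 0.144), and 40.8 and 35.7 CPM at day 10. Ppargc1a, Ppargc1b and Esrra were called higher at day 5 than at day 3. Pprc1, a further coactivator of the list chosen after its values were seen, went the other way. It had 18.5 and 18.0 CPM at day 5 and 27.6 and 48.5 CPM at day 3. Its levels were 8.60 and 7.43 CPM at day 10 and 47.2 and 46.3 CPM at 0 h.

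The list also holds mitochondrial enzymes. Acadm, the medium-chain acyl-CoA dehydrogenase and a textbook target of ESRRA, had 2124 and 2249 CPM at day 10 and 55.4 and 54.0 CPM at 0 h (log2 5.32, SE 0.103, edgeR adjusted p = 6.71e-17). Cs, citrate synthase, had 2215 and 2091 CPM at day 10 and 452 and 432 CPM at 0 h (log2 2.28, SE 0.0857), and Atp5b, a subunit of ATP synthase, had 4118 and 3872 CPM at day 10 and 1823 and 1776 CPM at 0 h (log2 1.15, SE 0.0838). In the step at day 5 against day 3, in which Esrra rose, the log2 fold change was 4.74 (SE 0.10) for Acadm, 2.76 (SE 0.0875) for Cs and 1.44 (SE 0.0844) for Atp5b, all called. At day 3 Cs and Atp5b lay below 0 h, by log2 changes of -0.80 (SE 0.0831) for Cs and -0.55 (SE 0.0831) for Atp5b, while Esrra was slightly above. Of the relatives of Esrra, Esrrb had 1 count in all 12 libraries together.

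Nr4a1 (Nur77; Entrez 15370, chromosome 15, 101253902 to 101274795, plus strand), an immediate early gene, showed a transient peak at day 3. Its counts were 23 and 35 at 0 h, 21 and 40 at 6 h, 517 and 292 at day 3, 100 and 126 at day 5, 60 and 49 at day 7, and 24 and 35 at day 10. In CPM these were 1.69 and 2.16, 1.37 and 2.17, 32.8 and 19.2, 6.22 and 7.52, 4.15 and 3.02, and 2.15 and 2.68. The day 3 libraries lay above all others but differed between themselves, 26.0 ± 9.64 CPM (SD, n = 2), and the day 10 libraries overlapped those of 0 h. Nr4a1 was 13.4-fold higher at day 3 than at 0 h (log2 3.74, SE 0.295, edgeR adjusted p = 5.83e-08). It was 3.79-fold lower at day 5 than at day 3 (log2 -1.92, SE 0.239, edgeR adjusted p = 7.55e-06), and at day 10 against 0 h its log2 fold change was 0.32 (SE 0.417, edgeR adjusted p = 0.482). The step at day 7 against day 5 (log2 -0.94, SE 0.297, edgeR adjusted p = 0.0228) was not called without replicate 2 of day 5 (adjusted p = 0.144) or replicate 2 of day 7 (0.165).

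The promoter window of Nr4a1 is shown because of the transient peak. It lies on the plus strand at chr15:101266596-101266895 (GRCm38.p6, RefSeq), 5′ to 3′ along the gene. Capitals mark 4 copies of TGCGTCA, letters that resemble the binding site of CREB and AP-1 proteins and were searched on both strands after the window had been read.
Nr4a1: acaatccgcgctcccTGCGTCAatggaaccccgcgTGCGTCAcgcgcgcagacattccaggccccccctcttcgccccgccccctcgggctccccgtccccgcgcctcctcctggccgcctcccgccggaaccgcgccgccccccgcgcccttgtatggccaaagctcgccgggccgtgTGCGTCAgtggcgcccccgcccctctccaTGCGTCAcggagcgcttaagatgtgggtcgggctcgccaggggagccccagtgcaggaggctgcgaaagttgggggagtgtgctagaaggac
The copies lie at bases -235 to -229, -215 to -209, -71 to -65 and -42 to -36 from the start. TGCGTCA was in 2.12% of all 32851 windows, and this was the only 1 with at least 4 copies. Both the letters and the limit of 4 were taken from this window, so that it stands out was partly built in. The element AAAGGTCA, which NR4A1 protein binds as a monomer, was in 1.51% of all windows and in none of the 15 receptor windows.

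Of 18 NR4A and immediate early genes, all with counts and all tested, 14 were called at day 3 against 0 h, against 68.1% of all genes, 10 higher (33.1% of all genes) and 4 lower (35.0%), with a median log2 fold change of 1.11 against 0.00 for all genes. At day 5 against day 3, 12 were called, a share near the 65.0% of all genes, and all 12 were lower (31.0% of all genes; median -1.13). At day 10 against 0 h, 12 were called against 82.7% of all genes, 6 higher and 6 lower. The list was not uniform. Nr4a3, a close relative of Nr4a1 chosen after its values were seen, peaked at the same time, with 62 and 39 counts at day 3 and 0 and 1 at 0 h, a ratio of 97.2 (95% exact counting interval 17.1 to 3878). Nr4a2 was not called at day 3 against 0 h: it had 2.60 and 2.24 CPM at day 3 and 2.35 and 3.15 CPM at 0 h (log2 -0.19, SE 0.285, edgeR adjusted p = 0.561), and 0.358 and 0.536 CPM at day 10 (log2 -2.59 against 0 h, SE 0.417). Atf3, a stress-induced factor, had 42.1 and 59.1 CPM at day 3 and 1.91 and 2.53 CPM at 0 h (log2 4.49, SE 0.216). Unlike Nr4a1, it had its highest mean at day 7. Its levels were 35.7 and 29.8 CPM at day 5, 67.8 and 58.7 at day 7, and 31.4 and 26.6 at day 10. Junb had 249 and 251 CPM at day 3 and 88.9 and 98.2 CPM at 0 h (log2 1.42, SE 0.0899). Jun went the other way, with 23.4 and 21.6 CPM at day 3 and 105 and 113 CPM at 0 h (log2 -2.28, SE 0.107).

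Both COUP-TF genes ended lower, by different routes. Nr2f1 (Entrez 13865, chromosome 13, 78188971 to 78198873, minus strand) had 13.6 and 17.6 CPM at 0 h, 13.1 and 14.7 at 6 h, 14.4 and 13.9 at day 3, 7.77 and 5.97 at day 5, 4.78 and 5.25 at day 7, and 6.99 and 5.05 at day 10. All libraries from day 5 on lay below all earlier ones. Nr2f1 was 2.62-fold lower at day 10 than at 0 h (log2 -1.39, SE 0.187, edgeR adjusted p = 2.79e-06) and 2.06-fold lower at day 5 than at day 3 (log2 -1.04, SE 0.175, edgeR adjusted p = 6.08e-05). At day 3 against 0 h its log2 fold change was -0.14 (SE 0.161, edgeR adjusted p = 0.443), and the 2 times overlapped.

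Nr2f2 (Entrez 11819, chromosome 7, 70351946 to 70366746, minus strand), known as a brake on fat cell differentiation in mouse cells, had 39.8 and 36.7 CPM at 0 h, 38.4 and 38.6 at 6 h, 20.4 and 23.2 at day 3, 37.1 and 44.5 at day 5, 22.7 and 22.7 at day 7, and 20.2 and 20.7 at day 10. The libraries of days 3, 7 and 10 lay below all others, and of the day 5 libraries 1 lay among those of 0 h and 6 h and the other above them. Nr2f2 was lower at day 3 than at 0 h (log2 -0.81, SE 0.107, edgeR adjusted p = 3.79e-06), higher at day 5 than at day 3 (log2 0.91, SE 0.106, edgeR adjusted p = 1.06e-06) and lower at day 7 than at day 5 (log2 -0.85, SE 0.105, edgeR adjusted p = 1.12e-05). At day 10 it was 1.87-fold lower than at 0 h (log2 -0.90, SE 0.110, edgeR adjusted p = 8.59e-07). Nr2f2 was the only receptor of the 10 with called steps in opposite directions 3 times in a row, at day 3 against 0 h, day 5 against day 3 and day 7 against day 5. Opposite-strand transcripts share 643 exon bases with Nr2f2 (B130024G19Rik) and 123 with Nr2f1 (A830082K12Rik). B130024G19Rik had 2.51 and 5.44 CPM at day 10 and 0.955 and 0.804 CPM at 0 h, and A830082K12Rik 1.79 and 2.37 CPM at day 10 and 2.86 and 3.83 CPM at 0 h.

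**Figure D3:**
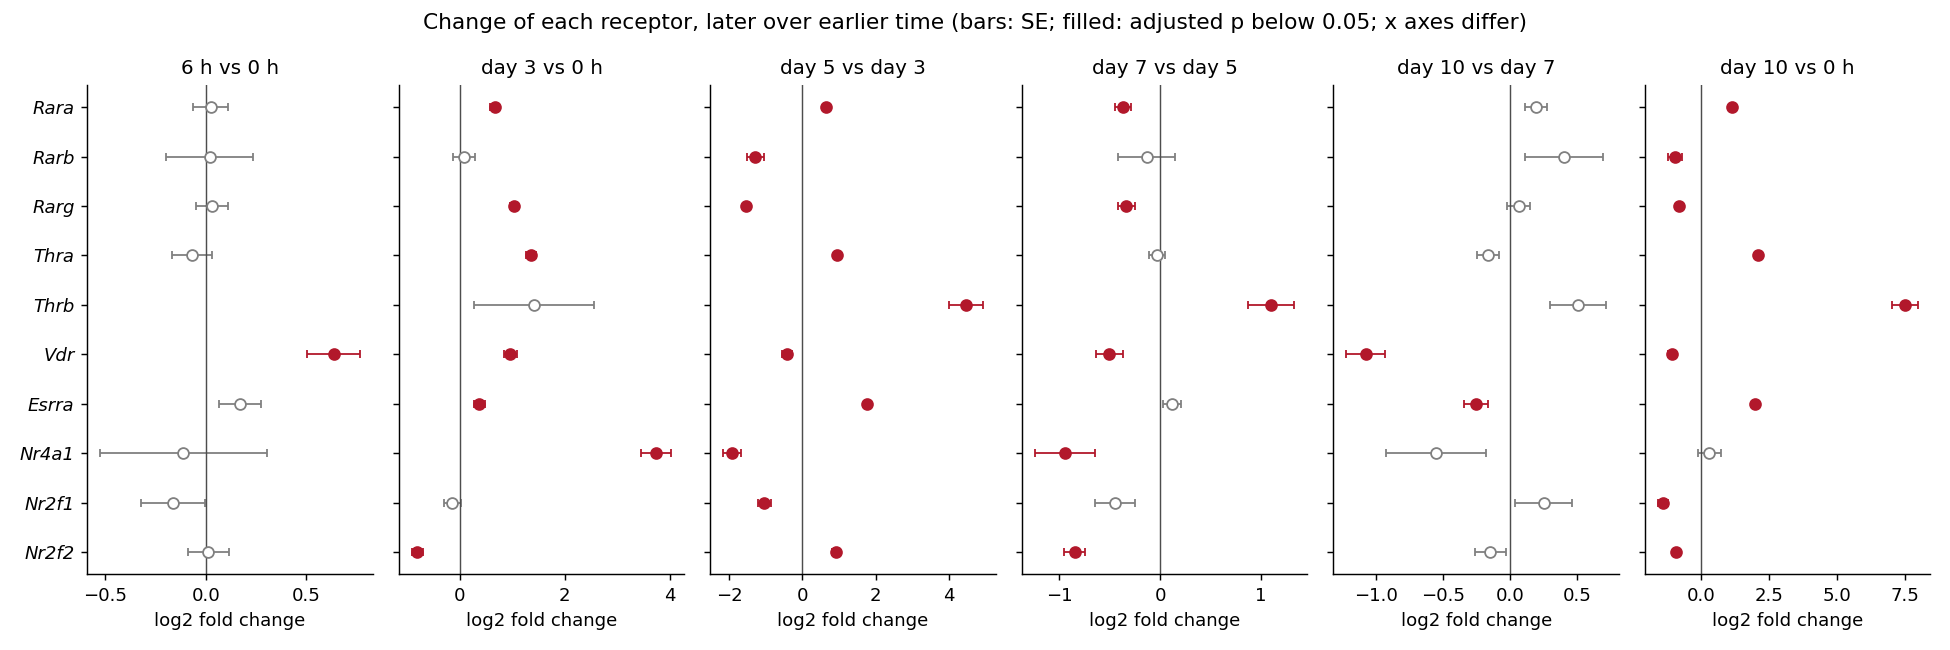
Log2 fold change of each receptor in 6 comparisons, later over earlier time, from edgeR (horizontal axes, scales differ between panels). Bars are SE, filled red points have an adjusted p below 0.05 and open points do not. Thrb is left out of the panel of 6 h against 0 h, where it had 3 counts or fewer at both times. Its points in the panels of day 3 and day 10 against 0 h rest on 2 counts at 0 h in both libraries together. Rarb, Rarg, Vdr, Nr4a1 and Nr2f1 lie left of 0 at day 5 against day 3 and the other 5 right of it.

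Set against each other per kilobase of gene length, the receptor with the highest mean was Rarg up to day 3 and Esrra from day 5 on, while the places below changed earlier. At 0 h Rarg led with 16.4 ± 0.641 CPM per kilobase, ahead of Esrra with 10.7 ± 0.0665 and Vdr with 9.71 ± 0.206 (SD, n = 2 each). Rara and Nr2f1, and Nr2f1 and Thra, were neighbours in that order whose libraries overlapped. At 6 h the libraries of Rarg, with 16.8 ± 1.13, overlapped those of Vdr, with 15.1 ± 2.44. Vdr lay above Esrra, with 12.0 ± 0.548, at that time without overlap. At day 3 Rarg led with 33.5 ± 0.579, ahead of Vdr with 18.9 ± 1.43, and the libraries of Thra and Esrra, which came next, overlapped. From day 5 on Esrra led, with 47.1 ± 7.00 at day 5, 50.9 ± 0.899 at day 7 and 42.6 ± 2.48 at day 10. Thra came next with 27.8 ± 0.370 at day 5 and 24.2 ± 1.31 at day 10, followed by Rara with 17.9 ± 0.122 at day 5 and 15.9 ± 1.08 at day 10, without overlap between neighbours among these. Thrb was last at 0 h and at day 10 stood at 2.06 ± 0.253, where its libraries did not overlap those of Nr4a1 and Rarb, the 2 lowest.

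The genes whose log2 CPM ran most like each receptor over the 12 libraries were picked by Pearson's r among tested genes with a mean of at least 10 CPM, predicted genes passed over. For Thra these were Tsc22d3 (r = 0.9982), Tef (0.9954) and Ctns (0.9950), for Esrra Plpp3 (0.9967), Rogdi (0.9964) and Nipsnap1 (0.9958), and for Thrb Gphn (0.9963), Gid8 (0.9949) and Ddhd2 (0.9948). The closest gene was Skap2 for Rara (0.9891), Prkd3 for Rarg (0.9889), Msi2 for Nr4a1 (0.9876), Fzd6 for Vdr (0.9807), Ier5 for Nr2f1 (0.9766), Adamts5 for Rarb (0.9703) and Dido1 for Nr2f2 (0.9485). The 12 libraries share 6 times, 2 each, so these values describe courses over time and not independent samples.

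**Figure D4:**
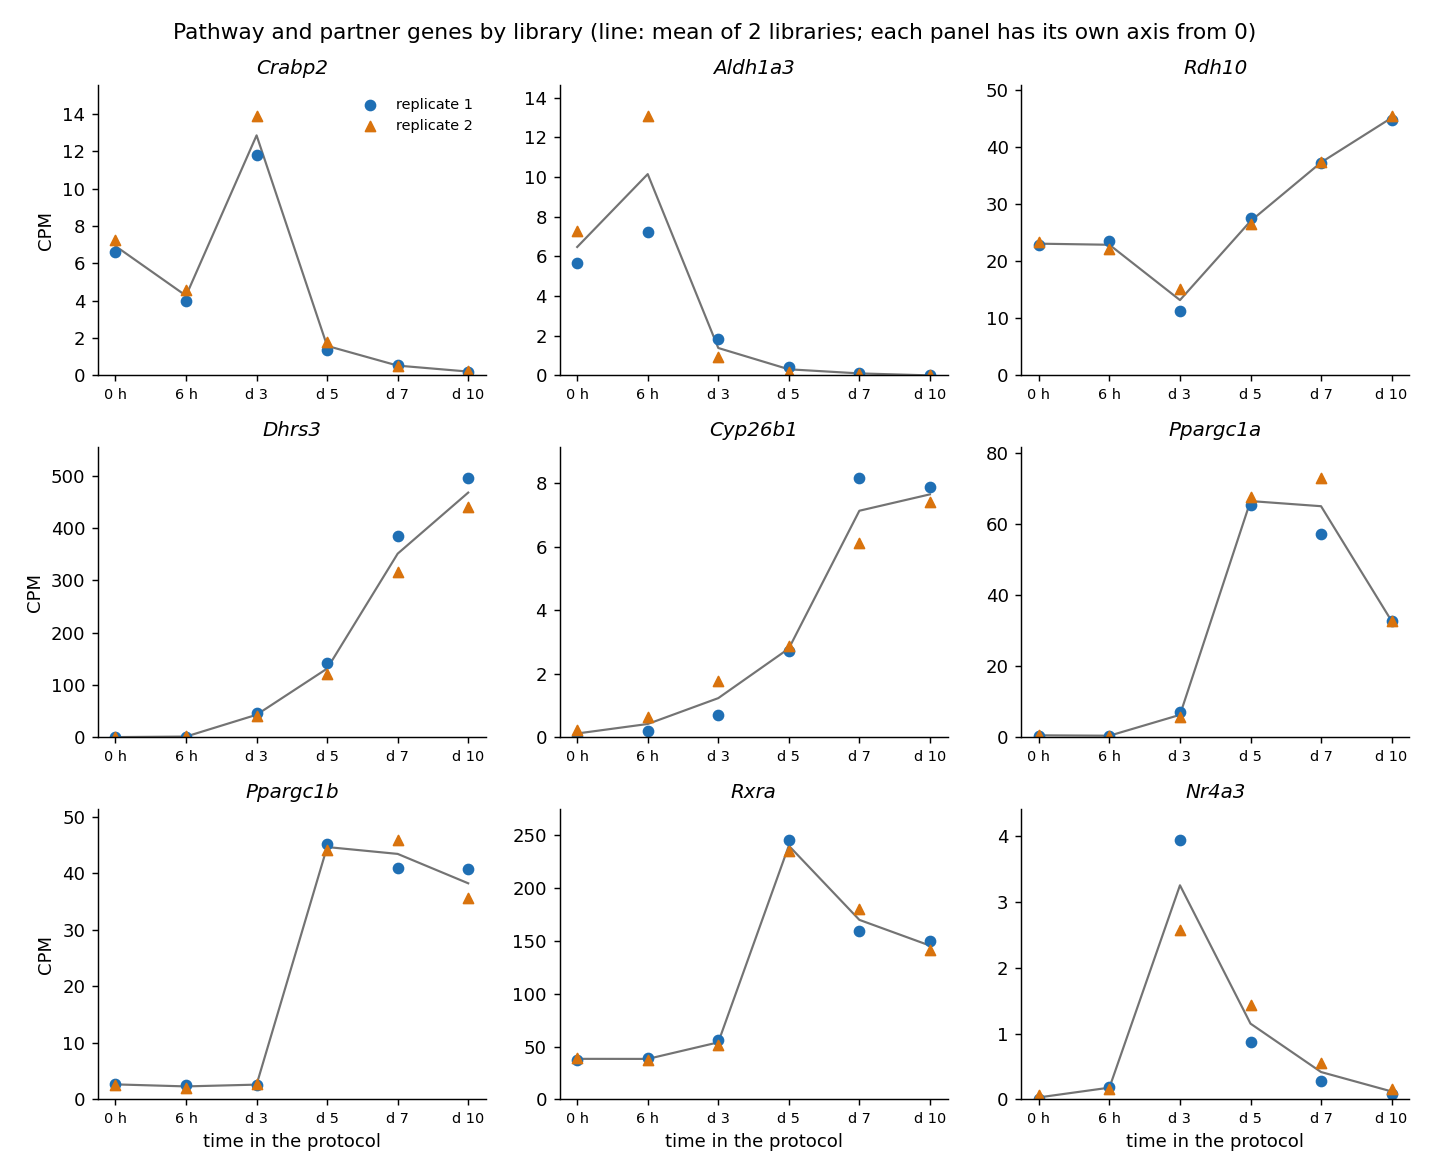
Levels of 9 partner and pathway genes in every library, in CPM (vertical axes start at 0 and differ), by time (evenly spaced, not to scale). Circles are replicate 1, triangles replicate 2 and lines join their means. Crabp2 and Nr4a3 peak at day 3, Dhrs3 and Rdh10 are highest at day 10, and Ppargc1a, Ppargc1b and Rxra stand higher from day 5 on than before.

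Among other nuclear receptors, 39 listed, 27 had counts and 23 were tested. Of the 23, 17 were called at day 10 against 0 h, a share below the 82.7% of all genes, 15 higher and 2 lower (median log2 fold change 1.01, and 0.93 with 3 low genes at their bound, against 0.06 for all genes). The 3 low genes passed the filter only through other times. At day 3 against 0 h, 21 were called against 68.1% of all genes, 18 higher (33.1% of all genes) and 3 lower (35.0%). Pparg, the target of rosiglitazone, had 336 and 342 CPM at day 10 and 0.147 and 0.124 CPM at 0 h (2 and 2 counts; log2 11.22, SE 0.461). Ppara, its relative in fat oxidation, had 297 and 340 counts at day 10 and 0 in both libraries of 0 h, at least 261-fold higher. Nr3c1, the glucocorticoid receptor, had 723 and 745 CPM at day 10 and 185 and 194 CPM at 0 h (log2 1.95, SE 0.0723). Rxra, a partner of the hormone receptors, had 246 and 235 CPM at day 5 and 56.4 and 51.7 CPM at day 3 (log2 2.15, SE 0.0797, edgeR adjusted p = 4.86e-13), and 150 and 141 CPM at day 10, against 37.2 and 39.6 CPM at 0 h. Rxrb had 46.0 and 45.9 CPM at day 10 and 32.8 and 32.0 CPM at 0 h (log2 0.50, SE 0.0923), and Rxrg had 2 and 7 counts at day 10. The retinoid X receptors were chosen after their values were seen.

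Of 33 coactivators and corepressors, 32 had counts and 31 were tested. At day 10 against 0 h, 25 were called, a share near the 82.7% of all genes, 14 higher and 11 lower, with a median log2 fold change of 0.13 against 0.06 for all genes. The largest changes were those of Ppargc1a and of Ppargc1b (log2 3.84, SE 0.148), described above. Ncor1, a corepressor that unliganded thyroid hormone and retinoic acid receptors hold, had 592 and 554 CPM at day 10 and 197 and 202 CPM at 0 h (log2 1.52, SE 0.0735, edgeR adjusted p = 3.9e-12). Trip12, a ubiquitin ligase first found as a partner of thyroid hormone receptors, had 505 and 529 CPM at day 10 and 426 and 414 CPM at 0 h (log2 0.30, SE 0.0687).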

How the data were processed

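RNA from 12 libraries (6 times, 2 each) was measured. Per the labels' protocols, total RNA (200 ng) went into a stranded total RNA kit, and the labels also call the sequenced RNA poly-A+. The submitters' processing notes name STAR and mm10; no source used here gives the counting tool, its strand setting or the annotation. The authors deposited raw counts by Entrez identifier with a gene length, 12820802 to 17570366 counts per library. Of 17090 identifiers, 17045 were matched to symbols by RefSeq (GRCm38.p6), 4 by GENCODE and 41 not.

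The model was fitted in R 4.3.3 by edgeR 4.0.16 (TMM, filterByExpr with a minimum count of 10 and total of 15, robust quasi-likelihood F test, 1 mean per time, 6 residual degrees of freedom, prior count 0.125). Benjamini-Hochberg adjustment ran over 12740 genes, and 4350 were removed. P-values measure the spread between the 2 experiments, pooled over times. Where a time had 0 counts a bound at a floor of 3 counts over the group is given, and for 1 to 3 counts a ratio with a 95% exact interval, covering counting error only; fitted fold changes of genes with few counts depend on the prior count. Per list, the 2 called genes with the largest change at day 10 against 0 h and the 2 of highest mean CPM are named; 1 listed gene is counted with its lists but not reported by name here. Genes with 3 counts or fewer over a time passed the filter only through other times, so part of such changes was built in. The receptors, lists and tests were chosen with earlier results of these data known. Promoter sequences are RefSeq's (GRCm38.p6). Steps were tested on simulated data. Alternatives were upper-quartile factors, median-of-ratios factors, a filter at 1 CPM or none, DESeq2 1.42.0, a replicate block, a prior count of 1, a fit of only the 4 libraries compared, and each library left out.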

Additional observations from a re-analysis of the deposited data

How the results depend on the processing

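The 59 fold changes of the receptors were recomputed under the alternatives, 1179 values in all. Of these, 1144 kept their direction and side of the threshold, 21 lost a call, 3 gained one and 11 turned in sign, all 11 of them for changes that were not called and with 1 library left out. At 6 h against 0 h, 0 to 1 receptors were called with 1 library left out, and the changes that turned ranged from -0.33 to 0.0385 (Nr2f1), -0.0469 to 0.0693 (Nr2f2), -0.51 to 0.16 (Nr4a1), -0.21 to 0.20 (Rarb) and -0.0397 to 0.0983 (Rarg) on the log2 scale. The others were Nr2f1 at day 3 against 0 h (-0.31 to 0.0566) and, at day 7 against day 5, Rarb (-0.45 to 0.30) and Esrra (-0.0320 to 0.29). At day 10 against day 7, 1 receptor was called under median-of-ratios factors, a filter at a mean of 1 CPM or DESeq2, and 1 to 2 with 1 library left out. At day 7 against day 5, 4 to 7 receptors were called with 1 library left out. Over all genes, 95 were called at 6 h against 0 h, 275 without a filter, 223 with only the 4 libraries compared and 35 to 141 with 1 library left out. At day 7 against day 5, 4815 were called, and 3128 without replicate 1 of day 7. At day 10 against day 7, 3615 were called, and 2143 to 3998 with 1 library left out. The cause of these differences was not tested. Upper-quartile factors moved the median of all genes at day 3 against 0 h by 0.11 (log2) and changed no call of a receptor. Same-numbered libraries showed little shared deviation (correlations of -0.0913 to 0.1933 over 15 pairs of times, 1 above 0.1). The pair above 0.1 was 0 h with 6 h. A replicate block left 9 receptors called at day 10 against 0 h, 7 at day 3 against 0 h, 1 at 6 h against 0 h, 10 at day 5 against day 3, 6 at day 7 against day 5 and 2 at day 10 against day 7. Depth limits Thrb before day 5, with at most 4 counts per library.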
